A study of Rattus norvegicus with 9 samples.

Results

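The effect of the MEK inhibitor U0126 on the transcriptome of Schwann cells with a knockdown of Nf1 was examined. Cultured primary Schwann cells of the rat sciatic nerve were transfected with scrambled oligonucleotides (Control RNAi) or with oligonucleotides against Nf1 (NF1 RNAi), and a further set of NF1 RNAi cells also received U0126 (NF1 RNAi + U0126). RNA was collected 48 hours after transfection from 3 independent replicates of each group and read on Affymetrix arrays, 1 array per replicate. The comparison uses 6 of the 9 arrays, the 3 of NF1 RNAi + U0126 and the 3 of NF1 RNAi, and covers the 14213 genes that had a probe set annotated to exactly 1 gene. Both groups of this comparison carry the same knockdown and differ by U0126. The labels do not state its dose or when and for how long it was given, and inhibitor-treated control cells are not part of the arrays analysed here, so the comparison measures U0126 in knockdown cells only. The RNAi is transient and leaves part of the Nf1 transcript.

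MEK is the kinase that phosphorylates and activates ERK, the last kinase of the Ras-Raf-MEK-ERK cascade. Neurofibromin, the Nf1 product, is a GTPase-activating protein that returns Ras to its inactive form, so its loss leaves Ras and the kinases below it more active. In Schwann cells ERK signalling is known to hold back the myelinating state and to drive the dedifferentiated state of injured nerve, in which the cells recruit monocytes through secreted chemokines. ERK also induces its own inhibitors and the immediate-early transcription factors, which are given briefly here before the genes that lie beyond them.

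Levels are given as log2(intensity + 1). A difference is NF1 RNAi + U0126 minus NF1 RNAi on this log2 scale, ± the standard error of a limma fit over all 9 arrays, n = 3 arrays per group throughout. A gene rose or fell where limma's Benjamini-Hochberg adjusted p over 14213 genes was under 0.05. The files hold no detection calls. Levels of about 4 to 5 lie near the low end of the arrays, where signal that does not come from the gene makes a log2 difference smaller than that of the RNA.

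Median intensities were between 95.0 and 97.1 in all 9 arrays. Within both groups replicate 1 was the more distant array. Its SD of log2 differences to replicates 2 and 3 was 0.208 and 0.248 for NF1 RNAi. For NF1 RNAi + U0126 it was 0.235 and 0.268. Between replicates 2 and 3 it was 0.149 and 0.16. Control RNAi replicate 1 lay farther out still, at 0.323 and 0.368 against 0.144. Its spread enters the standard errors of this comparison. Without that array 2587 genes rose or fell, against 1951 with all 9 arrays. For the beta-actin control transcript the 3′ probe set exceeded the 5′ one, a measure that grows as RNA degrades, by log2 differences of 0.785 to 0.848 in NF1 RNAi and 0.855 to 0.874 in NF1 RNAi + U0126, ranges that do not overlap. That of GAPDH was −0.098 to −0.020 and −0.064 to −0.052. The part of this difference in the results below was not tested. Because the samples are bulk cultures, fewer cells of a type and less RNA per cell cannot be told apart.

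The targeted transcript was low with and without the inhibitor. Nf1 had log2 levels of 5.39, 5.41 and 5.44 in NF1 RNAi and 5.44, 5.72 and 5.39 in NF1 RNAi + U0126, against 6.65, 6.59 and 6.15 in Control RNAi. The 2 knockdown groups overlapped, with a difference of 0.10 ± 0.14 (adjusted p = 0.694), and each of their 6 arrays lay below each control array.

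With U0126, 1951 of 14213 genes (13.7%) passed the test, 953 higher (6.71%) and 998 lower (7.02%). At least 2-fold changes were seen for 281 of them (122 higher, 159 lower), and at least 4-fold changes for 45 (17 higher, 28 lower). The arrays of both groups did not overlap in 33.9% of all genes. The median difference over all genes was 0.02. It was 0.46 among genes that rose and −0.47 among genes that fell, so most called changes were well under 2-fold. Genes that fell had been at a median log2 level of 9.44 in NF1 RNAi cells and genes that rose at 8.52, against 7.76 over all genes. With U0126 the order was reversed, at 8.81 for genes that fell and 9.06 for genes that rose. The NF1 RNAi level is itself part of the tested difference. With each of the 9 arrays left out in turn, 988 of the 1951 genes (50.6%) passed every time, and 230 of the 281 genes of at least 2-fold did (81.9%). The count was 1110 without NF1 RNAi replicate 2 (578 higher, 532 lower), 1226 without NF1 RNAi + U0126 replicate 2 (597 higher, 629 lower), and 616 genes were higher without NF1 RNAi replicate 3. A gene named below passed in all 9 of those fits unless the text says otherwise.

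**Figure D1:**
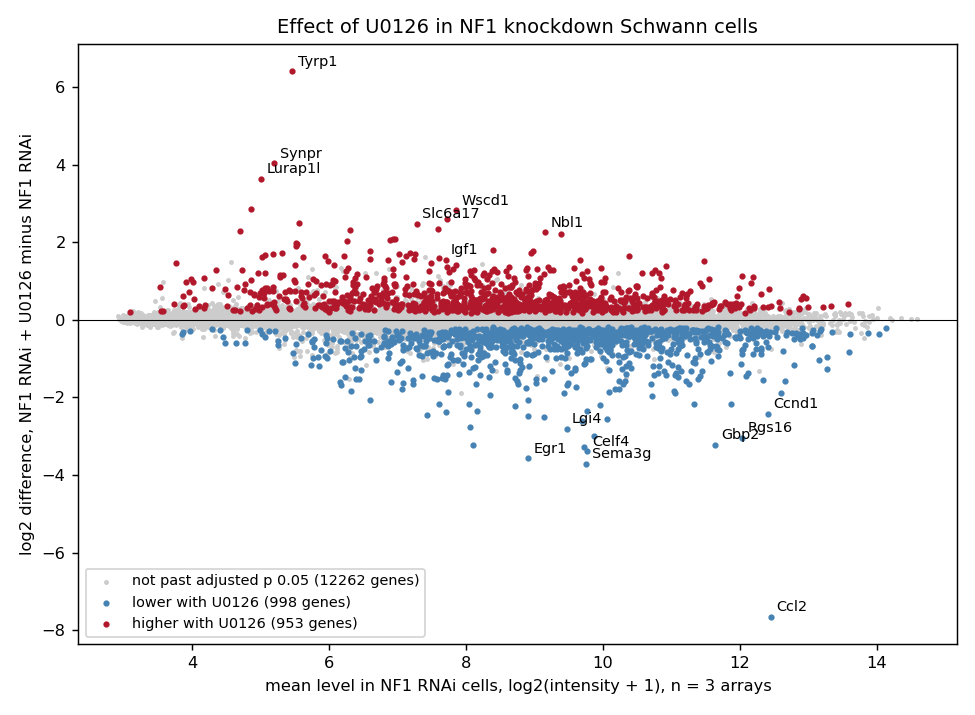
Each point is 1 of 14213 genes. The x axis is its mean log2(intensity + 1) in the 3 NF1 RNAi arrays and the y axis its log2 difference, NF1 RNAi + U0126 minus NF1 RNAi, with genes past an adjusted p of 0.05 in blue where lower (998 genes) and red where higher (953 genes). Ccl2 lies apart at the bottom (−7.65) and Tyrp1 at the top (6.41).

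Among secreted signals, the chemokine gene Ccl2, whose product attracts monocytes, showed the largest change of all genes. Its log2 levels were 13.15, 12.15 and 12.07 in NF1 RNAi and 4.82, 4.74 and 4.88 in NF1 RNAi + U0126. The inhibited arrays lay close together near the low end of the array, and also below the control arrays (10.23, 9.56 and 8.27). Ccl2 fell by 7.65 ± 0.45 on the log2 scale (adjusted p = 4.25e-05). Ccl7, a related monocyte chemoattractant, had log2 levels of 9.37, 7.56 and 7.40 in NF1 RNAi and 4.83, 4.81 and 5.02 with U0126, and fell by 3.22 ± 0.49 (adjusted p = 0.00321). Ccl11, the eosinophil chemoattractant eotaxin, had log2 levels of 7.77, 7.63 and 7.43 and then 5.59, 5.32 and 5.41, and fell by 2.17 ± 0.26 (adjusted p = 0.000977). For each of these chemokines every inhibited array was below every NF1 RNAi array.

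In the order of RefSeq genes on the GRCr8 assembly, Ccl2, Ccl7 and Ccl11 are direct neighbours. The next measured genes on their Ccl2 side, Asic2 (an acid-sensing ion channel, difference 0.14 ± 0.09) and Spaca3 (0.10 ± 0.08), did not pass, nor did Tmem132e (0.09 ± 0.06) beyond Ccl11. Falls came again farther out: past Spaca3 the membrane protein gene Tmem98 fell by 0.76 ± 0.15 (adjusted p = 0.0118), with Myo1d, an unconventional myosin gene, at −1.13 ± 0.33 without passing (adjusted p = 0.0555), and on the Ccl11 side the ubiquitin ligase gene Rffl fell by 0.37 ± 0.09 (adjusted p = 0.0223), lost without any NF1 RNAi array (adjusted p up to 0.076). Ccl12 and Ccl1 of the same cluster were not measured here. These neighbours were looked at after the values of Ccl2 had been seen. Chemokine genes of this family are similar in sequence, so shared signal between their probe sets was not tested.

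In a list of 18 chemokine and cytokine genes, Ccl2, Ccl7 and the osteopontin gene Spp1 fell and the median difference was −0.05. Ccl2, Ccl7 and Spp1 passed in each fit with 1 array left out. Spp1, a secreted matrix phosphoprotein that also acts as a cytokine, had log2 levels of 8.14, 7.78 and 7.24 in NF1 RNAi and 6.61, 6.51 and 6.54 with U0126, a difference of −1.17 ± 0.19 (adjusted p = 0.00438). Outside the list, where Ccl11 fell, others rose: the cytokine gene Il18 by 2.03 ± 0.16 (log2 levels 6.30, 6.30 and 6.19, then 8.32, 8.32 and 8.25) and the skin chemokine gene Ccl27 by 1.95 ± 0.17 (5.51, 5.49 and 5.62, then 7.01, 7.62 and 7.82). Adjusted p was 0.000162 for Il18 and 0.00024 for Ccl27. Il11ra1, the receptor chain for interleukin 11, rose by 2.06 ± 0.14 (adjusted p = 6.71e-05).

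Each further list is described by the members that rose, the members that fell, the range of both when 1 array was left out, and the count with the replicate numbers as a block, or with the replicate 1 arrays of all 3 groups left out, where it differed by more than 1.5 times. Where the low end of such a range is more than 1.5 times below the count it was reached without NF1 RNAi replicate 2, alone or along with other arrays. Where the high end is more than 1.5 times above the count it was reached without Control RNAi replicate 1. Exceptions are named. These counts stand beside the 6.71% of all genes that rose, the 7.02% that fell and the median of 0.02 over all genes. The shares of each list are plotted, and no list was tested as a set. All lists were chosen with earlier results of these data known. A share above that of all genes is therefore no independent finding.

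**Figure D2:**
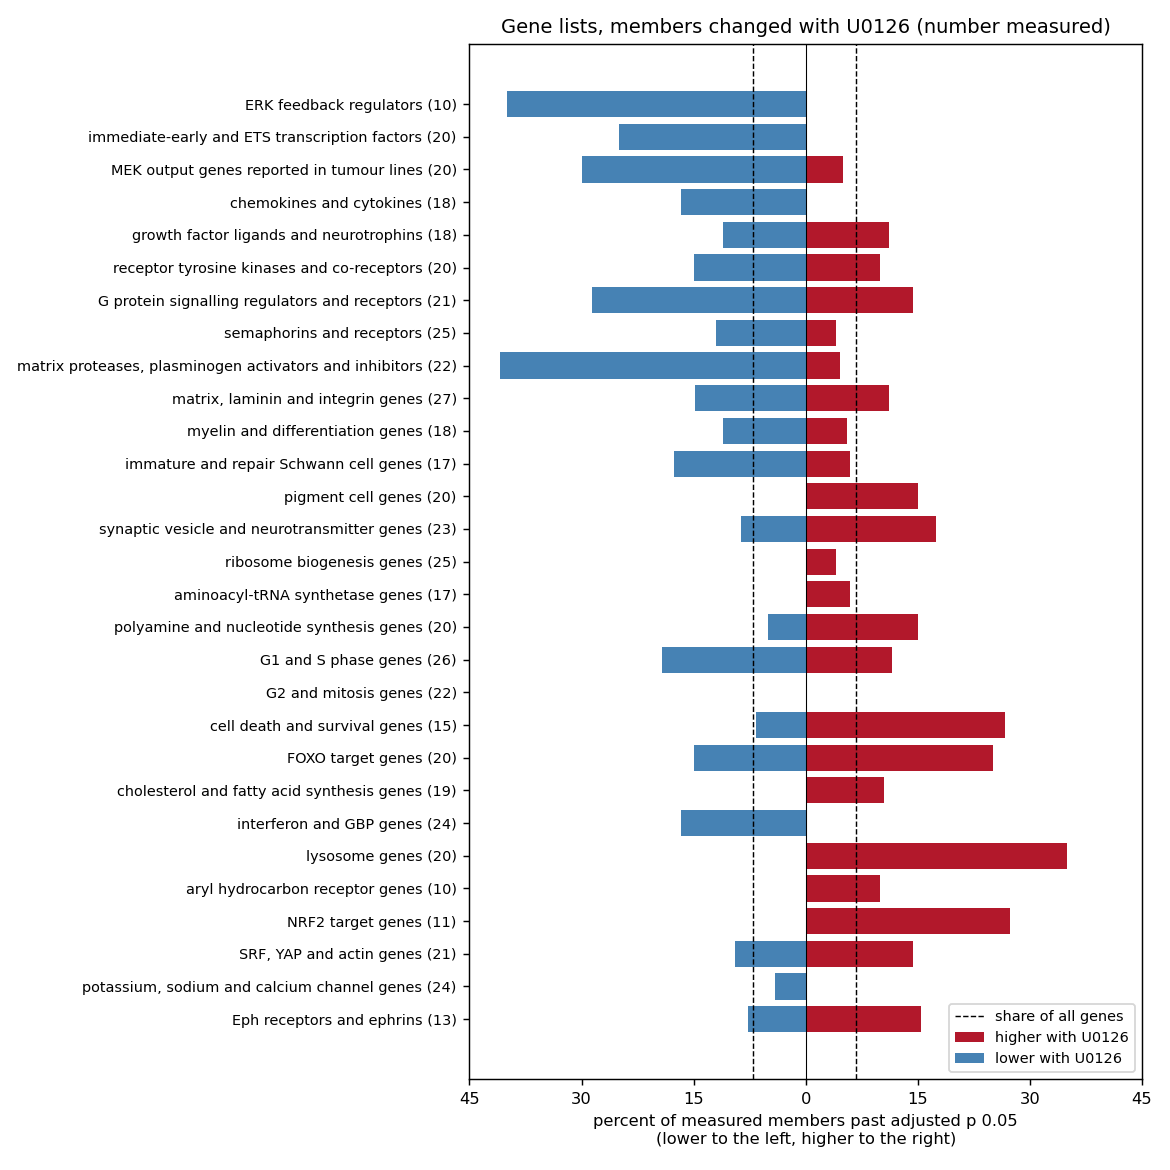
The 29 gene lists, with the number of measured members in parentheses. Bars give the percent of measured members that fell (blue, to the left) or rose (red, to the right) with U0126 at an adjusted p under 0.05, and dashed lines the shares of all genes, 7.02% lower and 6.71% higher. The matrix protease and ERK feedback lists have the longest bars to the left and the lysosome list the longest to the right. All lists were chosen with earlier results of these data known.

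Of 18 measured growth factor and neurotrophin genes, 2 rose (1 to 3) and 2 fell (2 to 5, 4 with the block, 6 without the replicate 1 arrays), with a median of 0.01. Gdnf, a survival factor for neurons, had log2 levels of 7.41, 7.04 and 6.76 in NF1 RNAi and 5.83, 6.17 and 5.98 with U0126, and fell by 1.07 ± 0.16 (adjusted p = 0.00287). Tgfb1, the transforming growth factor beta 1 gene, fell by 0.91 ± 0.11 (adjusted p = 0.00111). Igf1, an insulin-like growth factor that promotes Schwann cell survival, went the other way, from log2 levels of 8.02, 7.65 and 7.44 to 9.25, 9.24 and 9.28, a rise of 1.55 ± 0.14 (adjusted p = 0.000257). In Control RNAi cells Igf1 had been at 5.51, 5.74 and 5.85, so its level with U0126 was the highest of the 3 groups, without overlap. The rise of Tgfa, a ligand of the EGF receptor (0.97 ± 0.26, adjusted p = 0.0364), was lost without any of 6 arrays, the replicate 2 arrays of all 3 groups, NF1 RNAi replicate 1 and NF1 RNAi + U0126 replicates 1 and 3, with adjusted p up to 0.11.

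Of 20 receptor tyrosine kinase and co-receptor genes, 2 rose (1 to 3, 5 without the replicate 1 arrays) and 3 fell (0 to 4), with a median of 0.09. Erbb3, which encodes the neuregulin receptor of Schwann cells, had log2 levels of 9.96, 10.32 and 10.41 in NF1 RNAi and 8.75, 9.27 and 9.45 with U0126. The groups did not overlap and the fall of 1.08 ± 0.22 passed (adjusted p = 0.0122), but not without NF1 RNAi replicate 2 (adjusted p = 0.0536). Insr and Igf1r, the insulin and insulin-like growth factor 1 receptor genes, differed by −0.49 ± 0.13 and −0.31 ± 0.07 and passed (adjusted p = 0.042 and 0.0237), but Insr lost its call without any of 6 arrays and Igf1r without any of 4, among them NF1 RNAi replicates 1 and 2, with adjusted p up to 0.143 and 0.0948. Pdgfrb, a platelet-derived growth factor receptor gene, rose by 1.07 ± 0.15 (adjusted p = 0.00188), from log2 levels of 6.35, 6.62 and 6.17 to 7.58, 7.38 and 7.38. Its other probe sets differed by 0.46 and 0.26. Kit, the stem cell factor receptor gene that also marks melanocytes, had log2 levels of 5.68, 6.0 and 6.25 and then 6.63, 7.84 and 8.05, a rise of 1.53 ± 0.32 (adjusted p = 0.015). Kit lost its call without NF1 RNAi replicate 1, NF1 RNAi replicate 2 or NF1 RNAi + U0126 replicate 2 (adjusted p up to 0.0631).

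G protein signalling showed large changes in both directions: of 21 measured members of that list 3 rose (2 to 4, 5 without the replicate 1 arrays) and 6 fell (5 to 7), with a median of −0.03. Rgs16, which switches off heterotrimeric G proteins by speeding GTP hydrolysis, had log2 levels of 12.50, 12.08 and 11.51 in NF1 RNAi and 9.70, 9.08 and 8.20 with U0126, and fell by 3.04 ± 0.41 (adjusted p = 0.00165). Rgs4, a gene of the same family, moved oppositely, from 7.93, 7.42 and 7.44 to 10.63, 9.63 and 9.53. This rise of 2.34 ± 0.51 (adjusted p = 0.0162) was lost without NF1 RNAi replicate 2 or 3 (adjusted p up to 0.065). Among receptors, the serotonin receptor gene Htr2b had log2 levels of 8.11, 7.18 and 7.02 in NF1 RNAi and 5.29, 4.61 and 5.05 with U0126, and fell by 2.46 ± 0.35 (adjusted p = 0.00244). The inhibited range overlapped that of control cells (4.84, 4.03 and 3.67). Lpar1, a lysophosphatidic acid receptor gene, fell by 1.36 ± 0.15 (adjusted p = 0.00067) and P2ry2, a receptor gene for extracellular nucleotides, fell by 0.63 ± 0.12 (adjusted p = 0.00978). Rgs8 (−0.58 ± 0.08, adjusted p = 0.00176) and the adhesion receptor gene Adgrg6 (−0.40 ± 0.10, adjusted p = 0.0247), which Schwann cells need to start myelination, were the other falls, and Adgrg6 lost its call without any NF1 RNAi array or NF1 RNAi + U0126 replicates 2 or 3 (adjusted p up to 0.0922). The adenosine receptor gene Adora2b rose by 1.99 ± 0.11 (adjusted p = 3.54e-05) from log2 levels of 5.78, 5.25 and 5.52 to 7.46, 7.53 and 7.53. S1pr1, a sphingosine-1-phosphate receptor gene, rose by 0.65 ± 0.11 (adjusted p = 0.0053), while its other probe set differed by 0.07. Its mean log2 levels of 4.52 in NF1 RNAi and 5.17 with U0126 lay near the low end of the arrays.

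Guidance genes were led by Sema3g, which encodes a secreted class 3 semaphorin. Its log2 levels were 10.07, 9.79 and 9.42 in NF1 RNAi and 6.31, 6.10 and 5.73 with U0126, far apart, and it fell by 3.71 ± 0.23 (adjusted p = 4.7e-05). A further probe set of Sema3g differed by −0.76. In the list of 25 measured semaphorin and receptor genes 1 rose (1 to 3, 3 with the block, 4 without the replicate 1 arrays) and 3 fell (3 to 5, 5 with the block, 6 without the replicate 1 arrays), with a median of 0.02. The transmembrane semaphorin gene Sema6d fell by 1.07 ± 0.07 (adjusted p = 8.42e-05), the plexin receptor gene Plxnd1 fell by 0.73 ± 0.11 (adjusted p = 0.00366) and Plxna3 rose by 0.85 ± 0.17 (adjusted p = 0.0102). Of 13 measured Eph receptor and ephrin genes 2 rose (0 to 4, 4 without the replicate 1 arrays) and 1 fell (1 to 2, the high end also without NF1 RNAi replicate 3, 2 without the replicate 1 arrays), with a median of 0.10. Efnb1, a transmembrane ligand of Eph receptors, fell by 0.95 ± 0.15 (adjusted p = 0.00378). The receptor gene Epha4 rose by 1.19 ± 0.29 (adjusted p = 0.0274) and the ligand gene Efna1 by 0.61 ± 0.15 (adjusted p = 0.0265). Both lost their call without NF1 RNAi replicates 1 or 2 or NF1 RNAi + U0126 replicate 2, Epha4 also without NF1 RNAi + U0126 replicate 3 and Efna1 without NF1 RNAi replicate 3 (adjusted p up to 0.0983).

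**Figure D3:**
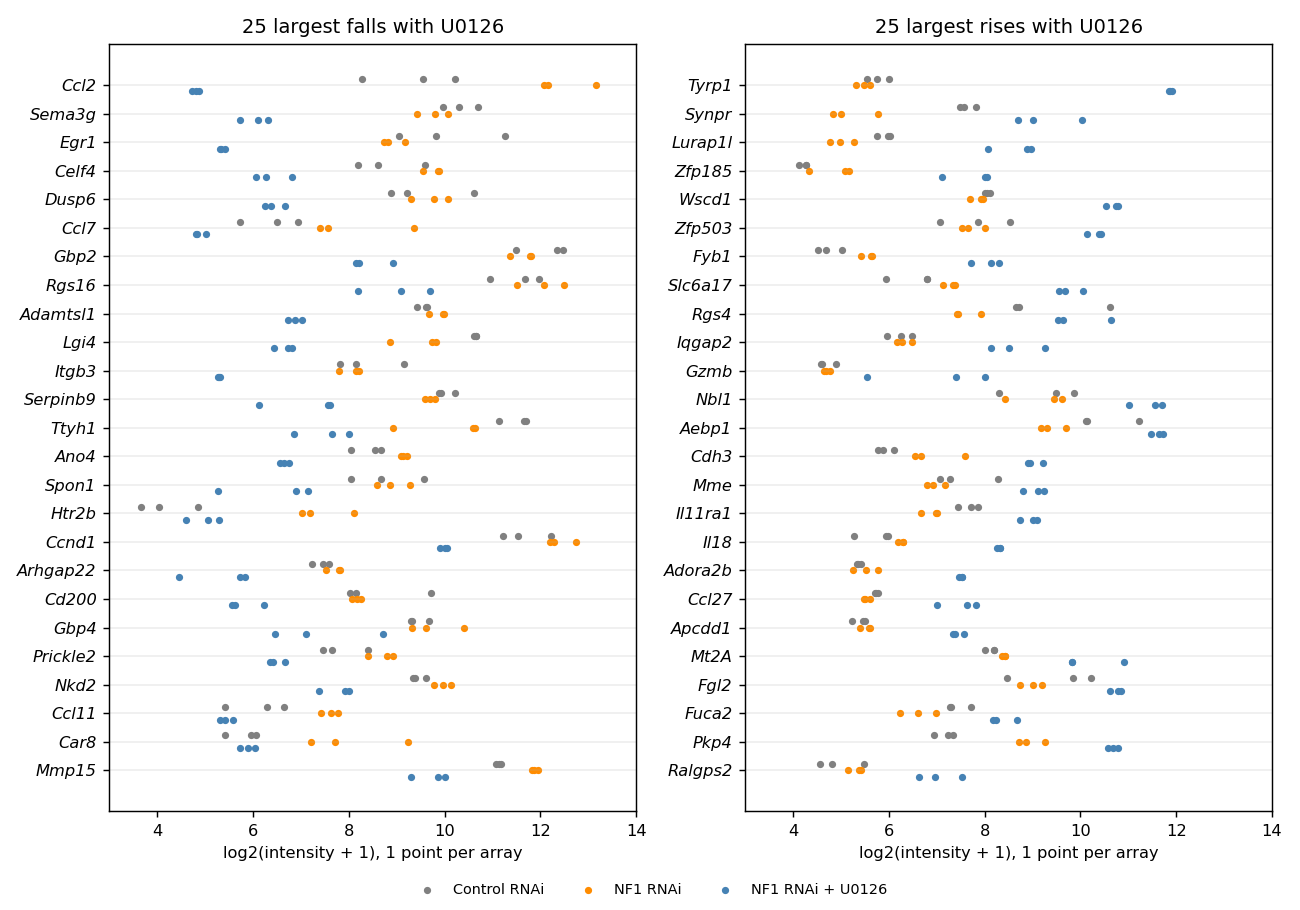
The 25 largest falls and the 25 largest rises among named genes that passed and whose groups do not overlap. Each point is the log2(intensity + 1) of 1 array of Control RNAi (grey), NF1 RNAi (orange) or NF1 RNAi + U0126 (blue). For Ccl2 the inhibited arrays lie below the control arrays, and for Tyrp1 they lie near 11.87, above all 6 others.

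Like the other lists, that of feedback regulators that ERK induces was chosen with earlier results of these data known. It is no independent check of the inhibitor. Of 10 measured feedback genes 4 fell (2 to 6, the low end also without NF1 RNAi replicate 3 or NF1 RNAi + U0126 replicate 1), with a median of −0.45. The ERK phosphatase gene Dusp6 had log2 levels of 10.08, 9.79 and 9.30 in NF1 RNAi and 6.24, 6.67 and 6.38 with U0126, and fell by 3.29 ± 0.40 (adjusted p = 0.00102). Spry2, an inhibitor of receptor to Ras signalling, fell by 1.42 ± 0.13 (adjusted p = 0.000291). Dusp5 (−0.97 ± 0.24, adjusted p = 0.0266) and Rasa2 (−0.51 ± 0.13, adjusted p = 0.0304), a nuclear ERK phosphatase and a Ras GTPase-activating protein, lost their calls without any of 4 and 5 arrays, NF1 RNAi replicates 2 and 3 and NF1 RNAi + U0126 replicate 1 among them (adjusted p up to 0.086 and 0.104).

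Of 20 immediate-early and ETS genes 5 fell (4 to 7) and 1 rose without the replicate 1 arrays, with a median of −0.24. Egr1 had log2 levels of 8.83, 9.18 and 8.73 in NF1 RNAi and 5.32, 5.41 and 5.30 with U0126 and fell by 3.56 ± 0.45 (adjusted p = 0.00119). Myc fell by 1.24 ± 0.19, the orphan nuclear receptor gene Nr4a1 by 0.99 ± 0.10 and the AP-1 gene Fosl1 by 0.73 ± 0.15, with adjusted p of 0.00313, 0.000435 and 0.0119. Egr2, a factor that drives myelination, fell by 0.56 ± 0.14 (adjusted p = 0.03), lost without NF1 RNAi replicates 2 or 3 or any NF1 RNAi + U0126 array (adjusted p up to 0.105). Etv5, an ETS factor downstream of ERK, differed by −1.51 ± 0.44 without passing (adjusted p = 0.0548). Its NF1 RNAi and NF1 RNAi + U0126 arrays did not overlap, with SDs of 0.176 and 0.088. The standard error also takes in the spread of the Control RNAi arrays.

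In a list of 20 genes named as MEK outputs in tumour cell lines 6 fell (5 to 6) and 1 rose (0 to 2, 2 with the block and 2 without the replicate 1 arrays), with a median of 0.05. Ccnd1, the cyclin D1 gene, was the largest of them. The others that fell were Phlda1 (−1.85 ± 0.25, adjusted p = 0.00163), the pseudokinase gene Trib2 (−1.50 ± 0.20, adjusted p = 0.00166), Fxyd5 (−1.43 ± 0.17, adjusted p = 0.000947), a regulator of the sodium pump, the EGF receptor ligand gene Hbegf (−1.39 ± 0.28, adjusted p = 0.0129) and the urokinase receptor gene Plaur (−0.71). Hbegf lost its call without NF1 RNAi replicate 2 or NF1 RNAi + U0126 replicate 2 (adjusted p up to 0.0537). A further probe set of Trib2 differed by −0.51. Epha4 was the member that rose.

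Extracellular proteolysis, through which Schwann cells clear and cross matrix, followed. Of 22 measured genes for matrix proteases, plasminogen activators and their inhibitors, 9 fell (7 to 10) and 1 rose (1 to 1, 2 with the block and 2 without the replicate 1 arrays), with a median of −0.19. Mmp15, a membrane-type matrix metalloprotease gene, had log2 levels of 11.94, 11.86 and 11.83 in NF1 RNAi and 9.29, 9.86 and 10.01 with U0126, and fell by 2.16 ± 0.16 (adjusted p = 9.79e-05). Mmp17, another membrane-type member, had log2 levels of 10.17, 10.26 and 9.85 and then 8.16, 8.45 and 8.11, and fell by 1.85 ± 0.14 (adjusted p = 9.79e-05). In both genes the groups were well separated. The proteoglycan-cleaving protease gene Adamts1 fell by 1.37 ± 0.22 (adjusted p = 0.00399). Adamts5, an aggrecan-cleaving protease, rose by 0.78 ± 0.12 (adjusted p = 0.004). The inhibitor gene Timp3 had log2 levels of 11.17, 11.29 and 11.20 in NF1 RNAi and 8.56, 10.18 and 10.17 with U0126, where replicate 1 stood apart. Its fall of 1.58 ± 0.41 (adjusted p = 0.034) was lost without Control RNAi replicate 2 or any NF1 RNAi array (adjusted p up to 0.108). The remaining falls were those of Mmp11, Mmp13, Plat, Plaur and Timp1, between −0.71 and −0.24. Mmp13 lay at the low end of the arrays, with mean log2 levels of 4.48 in NF1 RNAi and 3.88 with U0126. Plat, the tissue plasminogen activator gene, lost its call without any of 7 arrays, each NF1 RNAi array among them (adjusted p up to 0.149). The protease-like matrix gene Adamtsl1, outside the list and without a catalytic domain, fell by 3.0 ± 0.11 (adjusted p = 2.81e-06), from log2 levels of 9.98, 9.96 and 9.68 to 6.87, 6.73 and 7.02.

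Of 27 measured matrix, laminin and integrin genes 3 rose (2 to 3) and 4 fell (1 to 7, the high end without NF1 RNAi + U0126 replicate 1, 7 with the block, 10 without the replicate 1 arrays), with a median of −0.12. The laminin chain gene Lama4 fell by 0.97 ± 0.18 (adjusted p = 0.0083), while Lamb2, another laminin chain gene, rose by 0.51 ± 0.07 (adjusted p = 0.00135) and the integrin gene Itga3 by 0.46 ± 0.08 (adjusted p = 0.00493). Tnc (−1.16), Col1a2 (−0.34), Itgb1 (−0.34) and Dag1 (0.37), for tenascin C, a collagen I chain, integrin beta 1 and dystroglycan, passed but lost their calls without any of 4 to 7 arrays, NF1 RNAi replicate 1 and NF1 RNAi + U0126 replicates 2 and 3 among them (adjusted p up to 0.15). Outside the list, the integrin beta 3 gene Itgb3 had log2 levels of 8.14, 8.22 and 7.80 in NF1 RNAi and 5.28, 5.29 and 5.31 with U0126, and fell by 2.76 ± 0.29 (adjusted p = 0.000465). Mcam, an endothelial and glial adhesion molecule gene (CD146), had log2 levels of 12.69, 12.65 and 12.49 and then 10.98, 10.75 and 10.44, and fell by 1.89 ± 0.12 (adjusted p = 6.39e-05). Cdh3, the P-cadherin gene, rose by 2.09 ± 0.25 (adjusted p = 0.000872).

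The guanylate-binding protein genes, large GTPases of innate defence, fell together in a genomic cluster. Gbp2 had log2 levels of 11.36, 11.80 and 11.78 in NF1 RNAi and 8.21, 8.92 and 8.16 with U0126, a difference of −3.22 ± 0.28 (adjusted p = 0.00024). Gbp4 had log2 levels of 10.41, 9.61 and 9.31 and then 8.71, 7.11 and 6.46, a difference of −2.35 ± 0.51 (adjusted p = 0.016), a fall that was lost without NF1 RNAi replicate 1, NF1 RNAi replicate 2 or NF1 RNAi + U0126 replicate 2 (adjusted p up to 0.0647). Gbp7, chosen after its values were seen because it lies beside Gbp4, had 6.34, 6.88 and 6.57 and then 4.85, 4.5 and 4.20, a difference of −2.08 ± 0.17 (adjusted p = 0.000168). In no case did the groups overlap. In RefSeq order Gbp7, Gbp4 and Gbp2 are consecutive, and the next measured genes past Gbp2, also looked at after values had been seen, fell less: Kyat3, a kynurenine aminotransferase gene, by 0.98 ± 0.12 (adjusted p = 0.000947) and the general transcription factor gene Gtf2b by 0.48 ± 0.06 (adjusted p = 0.000809). Pkn2 beyond them differed by −0.12 ± 0.08 and did not pass. On the Gbp7 side the next measured gene, Pdlim5, for a PDZ and LIM domain protein, fell by 0.42 ± 0.10 (adjusted p = 0.0258), lost without NF1 RNAi replicates 1 or 2 or NF1 RNAi + U0126 replicates 2 or 3 (adjusted p up to 0.0946). Gbp5, Gbp1 and Gbp3 were not measured here, and since these genes are close in sequence, shared signal between their probe sets was not tested.

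**Figure D4:**
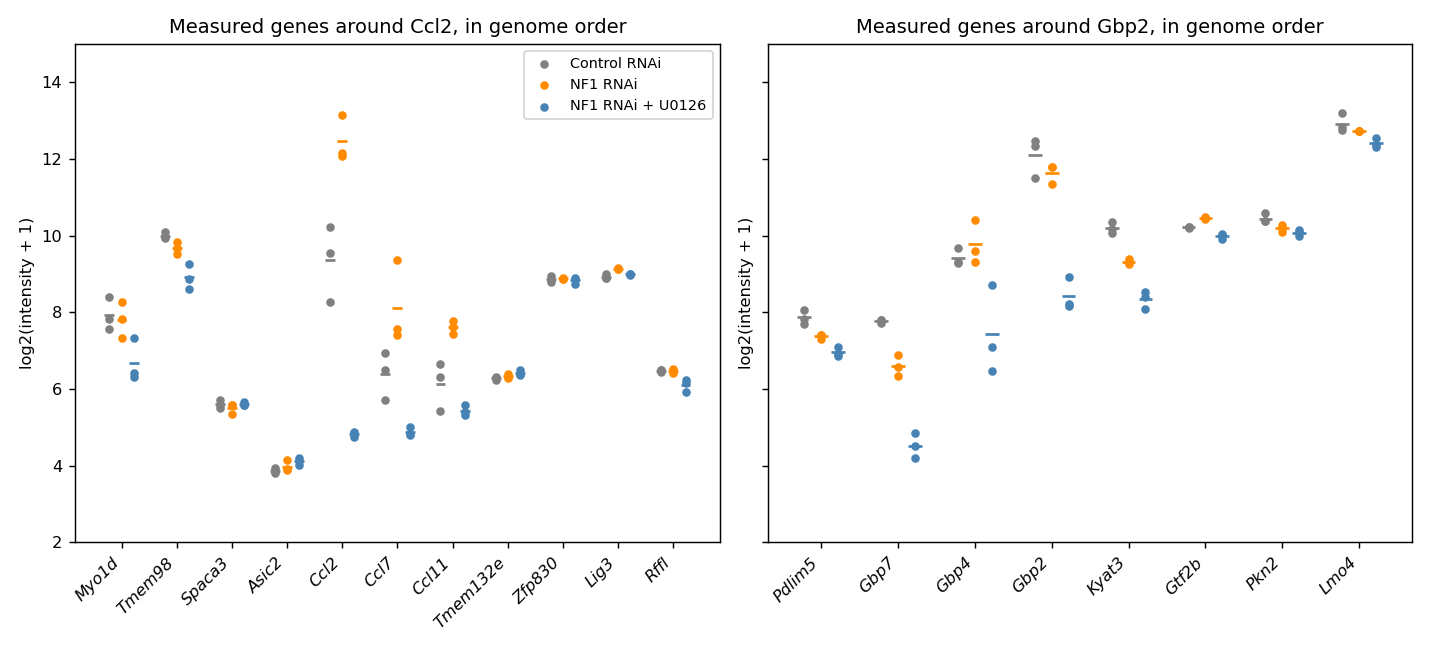
Measured genes around Ccl2 (left) and around Gbp2 (right) in RefSeq GRCr8 order, with unmeasured genes left out. Points are the log2(intensity + 1) of single arrays and short bars group means for Control RNAi (grey), NF1 RNAi (orange) and NF1 RNAi + U0126 (blue), and the inhibited arrays of Ccl2, Ccl7, Ccl11, Gbp7, Gbp4 and Gbp2 lie below their NF1 RNAi arrays, while Asic2 and Tmem132e differ by 0.14 and 0.09 and Tmem98, Rffl, Pdlim5, Kyat3 and Gtf2b show smaller falls.

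Of 24 measured interferon and GBP genes 4 fell (3 to 4), Gbp2, Gbp4, Ifit2 (−1.50 ± 0.24, adjusted p = 0.00434), an interferon-induced inhibitor of translation, and Ifi27 (−0.40 ± 0.08, adjusted p = 0.00915), and the median was 0.04. AP-1 is the Fos-Jun factor that ERK signalling activates. The promoters of Gbp2 and Gbp4 are shown because both hold its letters TGAGTCA close to the start. They are the 120 bases before the first RefSeq start, GRCr8, plus strand, chr2:234005607-234005726 for Gbp2 and chr2:233978366-233978485 for Gbp4, with the AP-1 letters in capitals, at −72 and −34 from the start.
Gbp2: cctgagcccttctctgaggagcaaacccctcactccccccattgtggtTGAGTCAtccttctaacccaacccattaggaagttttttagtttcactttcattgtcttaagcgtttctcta
Gbp4: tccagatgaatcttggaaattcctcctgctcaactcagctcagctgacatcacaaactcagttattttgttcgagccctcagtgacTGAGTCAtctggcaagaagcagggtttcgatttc
The letters describe these windows only. Over all measured genes that have a promoter entry, 3.46% held an AP-1 match, against 2.50% of those that fell and 3.13% of those that rose. AP-1 letters were thus not more frequent among genes that fell. Ccl2 has no such entry. Letters bound by interferon-activated factors were not searched, so others than those in capitals may be present. The part of AP-1 in the falls of Gbp2 and Gbp4 was not tested.

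Genes of the Schwann cell lineage changed one by one. Lgi4, a secreted protein that Schwann cells need for myelination, had log2 levels of 8.87, 9.81 and 9.73 in NF1 RNAi and 6.44, 6.74 and 6.82 with U0126, and fell by 2.81 ± 0.22 (adjusted p = 0.000155). It had been at 10.66, 10.66 and 10.62 in Control RNAi, so its level was lowest with U0126. Of 18 measured myelin and differentiation genes Lgi4 and Nab2 (−0.78 ± 0.15, adjusted p = 0.0086), a corepressor of Egr factors, fell (2 to 3), and 1 rose (0 to 1), with a median of 0.00. The riser was Nab1, a related corepressor (0.43 ± 0.10, adjusted p = 0.0218), which lost its call without any NF1 RNAi array or NF1 RNAi + U0126 replicates 2 or 3 (adjusted p up to 0.067). Of 17 measured immature and repair cell genes 3 fell (2 to 6, 6 with the block and 6 without the replicate 1 arrays) and 1 rose (1 to 1, 3 with the block), with a median of −0.15. The adhesion molecule gene L1cam had log2 levels of 8.48, 9.04 and 8.78 and then 7.14, 7.25 and 6.94, and fell by 1.65 ± 0.14 (adjusted p = 0.000164). The neural crest factor gene Foxd3 fell by 0.47 ± 0.07 (adjusted p = 0.00311) and Tfap2a, a factor of neural crest and of Schwann cell precursors, rose by 0.90 ± 0.09 (adjusted p = 0.000404). Gfap, the glial intermediate filament gene, fell by 1.29 ± 0.32 (adjusted p = 0.0286), a call that was lost without NF1 RNAi replicates 2 or 3 or any NF1 RNAi + U0126 array (adjusted p up to 0.104).

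The largest rise belonged to Tyrp1, which encodes an enzyme of the melanosome, the pigment organelle of melanocytes, a sister lineage of Schwann cells in the neural crest. Its log2 levels were 5.6, 5.31 and 5.48 in NF1 RNAi and 11.87, 11.84 and 11.90 with U0126, against 5.99, 5.54 and 5.74 in Control RNAi. Only the inhibited arrays were high, and Tyrp1 rose by 6.41 ± 0.11 (adjusted p = 1.67e-08), its other probe set by 4.58. Of 20 measured pigment cell genes 3 rose (1 to 3, the low end without NF1 RNAi + U0126 replicate 2, 5 with the block, 7 without the replicate 1 arrays), 1 (Pmel) fell with the block, and the median was 0.10. The second was Gpnmb, a melanosome and lysosome glycoprotein gene, with log2 levels of 10.68, 10.86 and 10.92 and then 11.43, 12.25 and 12.45, a rise of 1.22 ± 0.28 (adjusted p = 0.0196) that was lost without any NF1 RNAi array or NF1 RNAi + U0126 replicates 2 or 3 (adjusted p up to 0.0763). The third was the coactivator gene Ppargc1a (0.33 ± 0.07, adjusted p = 0.0154), which did not pass without NF1 RNAi + U0126 replicate 2 (adjusted p = 0.0606).

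The defining melanocyte genes did not pass. Tyr, the rate-limiting enzyme gene of melanin synthesis, had mean log2 levels of 5.14 in NF1 RNAi and 5.20 with U0126, Dct 5.10 and 5.15, and Mlana 4.91 and 4.92, all near the low end of the array. The melanosome matrix gene Pmel was at 8.34 and 8.01 (difference −0.33 ± 0.12, adjusted p = 0.104, and 0.00775 with the replicate block). Mitf, the master transcription factor of melanocytes, was at 8.12 and 8.26 (0.13 ± 0.13, adjusted p = 0.567). Across the 7 measured melanocyte markers Tyrp1 and Kit rose (1 to 2), and the median difference was 0.07. The sum of intensities went from 782.6 to 828.1 in NF1 RNAi to 4509.7 to 4741.1 with U0126. Tyrp1, the brightest of them with U0126 at a mean log2 level of 11.87, made up most of this rise. With the block Pmel also fell.

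**Figure D5:**
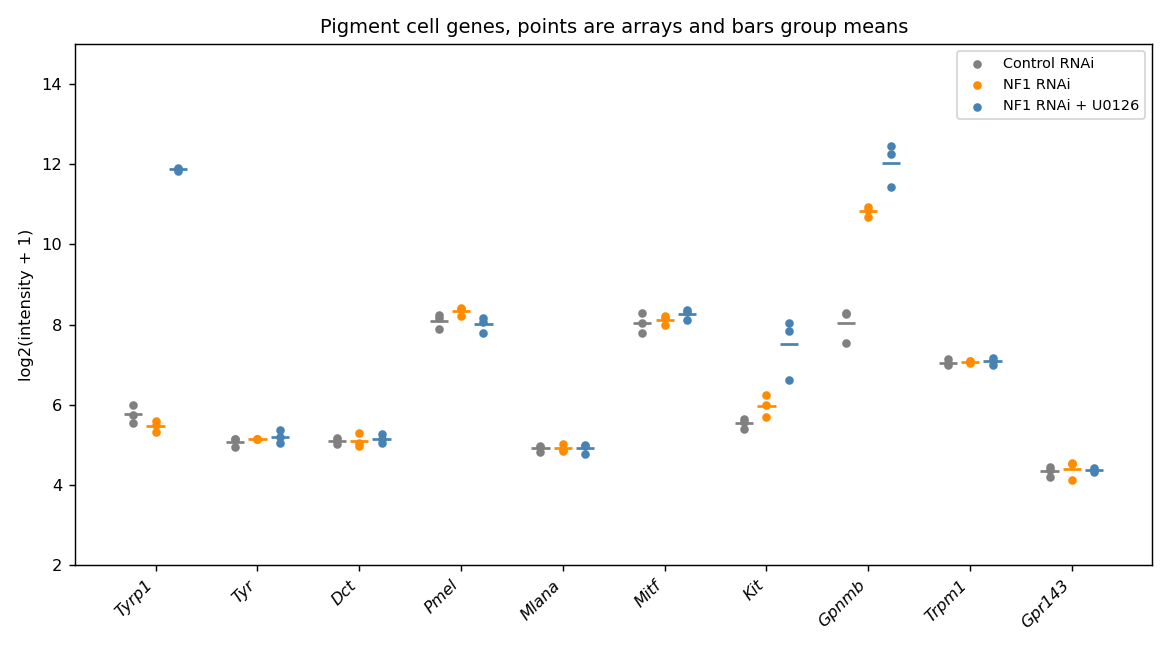
Log2(intensity + 1) of 10 pigment cell genes, with points for single arrays and bars for group means. Tyrp1 stands near 11.87 in all 3 NF1 RNAi + U0126 arrays and below 6 in the others, while Tyr, Dct and Mlana stay near 5 in every array.

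MITF binds the letters CATGTG, the core of the M-box of pigment gene promoters, and the promoters of both leading pigment genes are shown because they hold these letters close to the start. They are the 120 bases before the first RefSeq start, GRCr8, plus strand, chr5:100327005-100327124 for Tyrp1 and chr4:79341008-79341127 for Gpnmb. Capitals mark the match, at −67 in Tyrp1 and at −22 on the reverse strand in Gpnmb, where it is printed as its complement.
Tyrp1: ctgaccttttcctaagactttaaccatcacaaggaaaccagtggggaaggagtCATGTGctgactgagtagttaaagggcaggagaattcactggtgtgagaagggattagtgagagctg
Gpnmb: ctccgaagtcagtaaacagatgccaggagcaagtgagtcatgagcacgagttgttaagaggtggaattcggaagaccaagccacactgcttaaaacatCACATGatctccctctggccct
The Gpnmb window also holds an AP-1 match in small letters at −87. CATGTG is a common word, found in 7.69% of all measured promoters.

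Among neuronal and synaptic genes Synpr, for a membrane protein of synaptic vesicles, had log2 levels of 5.77, 5.0 and 4.84 in NF1 RNAi and 10.02, 9.01 and 8.70 with U0126, and rose by 4.04 ± 0.34 (adjusted p = 0.000196). Its control levels of 7.47, 7.57 and 7.83 lay between. Slc6a17, a vesicular transporter gene for neutral amino acids, rose by 2.48 ± 0.23 (adjusted p = 0.000274), while its other probe sets differed by 0.25, 0.36, 0.19 and 1.17. Slc6a8, the creatine transporter gene, rose by 1.21 ± 0.13 (adjusted p = 0.000498). Celf4, a neuronal RNA-binding protein gene, went the other way, from log2 levels of 9.89, 9.86 and 9.55 to 6.81, 6.06 and 6.27, a difference of −3.39 ± 0.33 (adjusted p = 0.000356). In that list 4 of 23 measured genes rose (3 to 5) and 2 fell (1 to 3, the low end without NF1 RNAi replicates 1 or 3 or NF1 RNAi + U0126 replicates 1 or 2), with a median of 0.06. Sv2b (0.47) and Slc6a15 (−0.36) passed but lost their calls without any of 4 arrays (adjusted p up to 0.115). NF1 RNAi replicate 3 and NF1 RNAi + U0126 replicates 1 and 2 were among these arrays. Slc6a15 lay at the low end of the arrays, with mean log2 levels of 3.855 in NF1 RNAi and 3.498 with U0126. Of 24 measured ion channel genes 1 fell (0 to 1), the potassium channel gene Kcnd3 (−1.01 ± 0.23, adjusted p = 0.0202), which lost its call without NF1 RNAi replicates 1 or 2 or NF1 RNAi + U0126 replicates 2 or 3 (adjusted p up to 0.079). The high end of the rises there was 1, without NF1 RNAi + U0126 replicate 3, and the median was 0.06.

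In the cell cycle lists Ccnd1, the D-type cyclin that opens G1, had log2 levels of 12.74, 12.28 and 12.20 in NF1 RNAi and from 9.90 to 10.05 with U0126, and fell by 2.42 ± 0.24 (adjusted p = 0.000381), and its other probe sets differed by −2.41 and −2.31. Ccnd2 and Ccnd3, the other D-type cyclins, fell by 0.88 ± 0.15 and 0.88 ± 0.05 (adjusted p = 0.00567 and 4.25e-05). Ccne2, an E-type cyclin gene, fell by 1.34 ± 0.28 (adjusted p = 0.0145), but its other probe set differed by 0.02 and the call was lost without NF1 RNAi replicates 1 or 2 or NF1 RNAi + U0126 replicate 2 (adjusted p up to 0.0615). Cdk4, the partner kinase gene of the D-type cyclins, rose by 0.39 ± 0.06 (adjusted p = 0.00252). So did the CDK inhibitor gene Cdkn2b by 0.70 ± 0.07 (adjusted p = 0.000325) and the replication licensing gene Cdt1 by 0.52 ± 0.11 (adjusted p = 0.0125). In all 5 of 26 measured G1 and S phase genes fell (3 to 6, the low end also without NF1 RNAi + U0126 replicate 2) and 3 rose (3 to 3, 6 without the replicate 1 arrays), with a median of −0.02. The fifth fall, of the replication helicase gene Mcm7 (−0.30 ± 0.07, adjusted p = 0.0284), was lost without NF1 RNAi replicates 2 or 3 or any NF1 RNAi + U0126 array (adjusted p up to 0.11).

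Of 22 G2 and mitosis genes limma called 0, and 0 also had an unadjusted p under 0.05, with a median of −0.18. The standard errors also take in the spread of the Control RNAi arrays. The list's summed intensity was 2649.2 to 11313.3 there, 1176.7 to 1420.8 in NF1 RNAi and 1062.2 to 1196.8 with U0126. The inhibited arrays lay wholly below the NF1 RNAi arrays for 4 members and above for 0, beside 16.1% and 17.8% of all genes. The 0 calls thus do not show unchanged levels. A limma fit on the 2 groups alone called 2 lower, 1 was lower without Control RNAi replicate 1, and with all replicate 1 arrays left out 5 were lower and 1 higher. The proliferation marker Mki67 was at mean log2 levels of 4.45 and 4.24 and the mitotic cyclin Ccnb1 at 5.69 and 5.36, in the lower part of the array in both groups. The smallest p of the list belonged to the spindle checkpoint kinase gene Bub1 (−0.87 ± 0.56, adjusted p = 0.372).

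Of 15 measured cell death and survival genes 4 rose (2 to 4, the low end without Control RNAi replicate 2, NF1 RNAi replicates 1 or 3 or NF1 RNAi + U0126 replicates 2 or 3) and 1 fell (0 to 1), with a median of 0.06. Bbc3 and Bad, both BH3-only death genes, rose by 0.45 ± 0.07 and 0.37 ± 0.07 (adjusted p = 0.00404 and 0.00897). Bcl2l11, which encodes BIM, a death protein that ERK marks for degradation, differed by −0.39 ± 0.08 (adjusted p = 0.014), without a call when NF1 RNAi replicate 2 or NF1 RNAi + U0126 replicate 2 was left out (adjusted p up to 0.0553). Bcl2l1 (0.50) and Bid (0.30), a survival and a death gene, lost their calls without any of 5 and 6 arrays, including Control RNAi replicate 2 and NF1 RNAi replicates 1 and 3 (adjusted p up to 0.131). The serpin gene Serpinb9, whose product inhibits granzyme B, had log2 levels of 9.71, 9.79 and 9.60 in NF1 RNAi and 6.13, 7.56 and 7.60 with U0126, and fell by 2.60 ± 0.34 (adjusted p = 0.00143). The granzyme B gene itself, Gzmb, had log2 levels of 4.76, 4.65 and 4.70 and then 5.54, 7.40 and 8.01, a rise of 2.28 ± 0.51 (adjusted p = 0.018), lost without NF1 RNAi replicates 2 or 3 or NF1 RNAi + U0126 replicate 2 (adjusted p up to 0.0724).

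Lysosome genes encode the enzymes and membrane proteins of the degradative organelle. Of 20 measured lysosome genes 7 rose (4 to 10, the low end also without NF1 RNAi replicate 3, 11 with the block and 11 without the replicate 1 arrays), with a median of 0.24. The rises were small: the protease gene Ctsz by 0.57 ± 0.08 (adjusted p = 0.00244), the cholesterol carrier gene Npc2 by 0.54 ± 0.10 (adjusted p = 0.00623), Tpp1 by 0.44 ± 0.07 (adjusted p = 0.00419) and the acid glucosidase gene Gaa by 0.51 ± 0.11 (adjusted p = 0.0147). Gaa lost its call without NF1 RNAi replicates 2 or 3 or NF1 RNAi + U0126 replicate 3 (adjusted p up to 0.0603). The other risers were Ctsb, Glb1 and Mcoln1, by 0.34, 0.26 and 0.29. Glb1 and Mcoln1 each lost their call without any of 6 arrays, Control RNAi replicate 2, NF1 RNAi replicates 2 and 3 and NF1 RNAi + U0126 replicate 2 among them (adjusted p up to 0.132). Fuca2, a fucosidase gene outside the list, rose by 1.76 ± 0.21 (adjusted p = 0.000902).

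Of 11 measured NRF2 target genes 3 rose (3 to 6, 5 with the block, 7 without the replicate 1 arrays), with a median of 0.46, and 1 fell without NF1 RNAi replicate 1, with the block and without the replicate 1 arrays. They were the glutathione transferase gene Gsta4 (0.53 ± 0.08, adjusted p = 0.00407), the thioredoxin reductase gene Txnrd1 (0.48 ± 0.07, adjusted p = 0.00262) and Gclc (0.46 ± 0.09, adjusted p = 0.00742), the catalytic subunit for glutathione synthesis. U0126 can act on the aryl hydrocarbon receptor, so its targets were listed too. Of 10 measured, 1 rose (1 to 2, 2 with the block and 2 without the replicate 1 arrays) and 1 fell with the block and without the replicate 1 arrays, with a median of −0.07. The riser was Tiparp, an ADP-ribosyltransferase gene, with log2 levels of 8.5, 8.34 and 8.30 and then 9.64, 9.59 and 9.68, a difference of 1.26 ± 0.08 (adjusted p = 4.95e-05). Cyp1a1, the classic target of that receptor, differed by −0.39 (adjusted p = 0.303).

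Of 20 FOXO target genes 5 rose (2 to 6) and 3 fell (0 to 5, the low end also without NF1 RNAi replicate 1 or NF1 RNAi + U0126 replicate 2, 5 without the replicate 1 arrays), with a median of 0.14. Gadd45a, a growth arrest gene, rose by 1.09 ± 0.16 (adjusted p = 0.00257) and Klf15, a metabolic transcription factor, by 1.09 ± 0.10 (adjusted p = 0.000231). Klf15 had further probe sets at 0.04 and 0.52. Gadd45b rose by 0.83 ± 0.17 (adjusted p = 0.0137), a call lost without NF1 RNAi replicate 2 or NF1 RNAi + U0126 replicate 3 (adjusted p up to 0.057). Sesn1, Cat and Insr, the stress sensor sestrin 1, catalase and the insulin receptor, were the falls, between −0.49 and −0.36, each lost without NF1 RNAi replicates 1 or 2 and in further fits (adjusted p up to 0.143). The other rises, of Sod2 (0.28) and Pik3ip1 (0.27), a superoxide dismutase and an inhibitor of PI3 kinase, were lost without any of 4 and 7 arrays, NF1 RNAi replicates 2 and 3 and NF1 RNAi + U0126 replicates 1 and 2 among them (adjusted p up to 0.124). Of 20 measured polyamine and nucleotide synthesis genes 3 rose (3 to 4, 6 without the replicate 1 arrays) and 1 fell (0 to 1, 2 without the replicate 1 arrays), with a median of 0.16. Odc1, the first enzyme of polyamine synthesis, rose by 0.73 ± 0.07 (adjusted p = 0.000276), Sms, the spermine synthase gene, by 0.73 ± 0.13 (adjusted p = 0.00676), and Ppat, the first enzyme of purine synthesis, by 0.94 ± 0.09 (adjusted p = 0.000276). The fall, of the purine enzyme gene Atic (−0.36 ± 0.09, adjusted p = 0.0328), was lost without any of 5 arrays, NF1 RNAi replicates 1 and 2 and each NF1 RNAi + U0126 array (adjusted p up to 0.112).

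Of 25 measured ribosome biogenesis genes 1 rose (0 to 2, the high end also without NF1 RNAi replicate 3, 2 with the block), Nop2 (0.22 ± 0.06), and 1 fell without the replicate 1 arrays, with a median of 0.10. Of 17 measured aminoacyl-tRNA synthetase genes 1 rose (0 to 2, the high end without NF1 RNAi + U0126 replicate 3, 2 with the block), the alanyl enzyme gene Aars1 (0.36 ± 0.07, adjusted p = 0.0113, and 0.052 without NF1 RNAi replicate 2), with a median of 0.05. Of 19 measured cholesterol and fatty acid synthesis genes 2 rose (0 to 5, 6 without the replicate 1 arrays), the desaturase gene Scd (1.33 ± 0.34, adjusted p = 0.0319) and the squalene epoxidase gene Sqle (0.73 ± 0.16, adjusted p = 0.0172), with a median of 0.08. Nop2, Scd and Sqle lost their calls without any of 4 to 7 arrays, NF1 RNAi replicate 2 and NF1 RNAi + U0126 replicates 2 and 3 among them (adjusted p up to 0.144). Of 21 measured SRF, YAP and actin genes 3 rose (1 to 3, the low end also without NF1 RNAi + U0126 replicate 1) and 2 fell (1 to 2), with a median of 0.06. Vcl, the focal adhesion protein vinculin, fell by 0.65 ± 0.07 (adjusted p = 0.000741), and Ajuba, a LIM protein of the Hippo pathway, rose by 0.90 ± 0.08 (adjusted p = 0.000276). Tpm1 (0.74), Amotl2 (0.63) and Tead1 (−0.24) passed but lost their calls without any of 3 to 7 arrays, NF1 RNAi replicate 2 and NF1 RNAi + U0126 replicate 1 among them (adjusted p up to 0.111).

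Some genes that responded to U0126 had differed little between NF1 RNAi and Control RNAi. Of the 1951 genes that passed, 907 (46.5%) had a difference of under 0.25 in size between NF1 RNAi and Control RNAi, a smaller share than the 68.5% of all 14213 genes, 412 of them lower and 495 higher with U0126. Both differences share the NF1 RNAi arrays. The 5 largest such falls were those of Dusp6, Spon1, Pakap, Mcam and Sorcs2. Spon1, the F-spondin gene, fell by 2.47 ± 0.51 (adjusted p = 0.0136, and 0.0608 without NF1 RNAi replicate 2) and stood at log2 levels of 5.27, 6.90 and 7.15 with U0126, replicate 1 lowest. Pakap, a gene for a protein kinase A anchor, fell by 1.97 ± 0.19 (adjusted p = 0.000331). Sorcs2, a neurotrophin precursor receptor gene, had log2 levels of 11.04, 11.13 and 10.93 and then 9.40, 9.29 and 8.91, and fell by 1.83 ± 0.15 (adjusted p = 0.00017). The 5 largest rises were those of Wscd1, Zfp503, Iqgap2, Gzmb and Nbl1. Wscd1 had log2 levels of 7.70, 7.93 and 7.97 and then 10.53, 10.75 and 10.78, and rose by 2.82 ± 0.09 (adjusted p = 2.02e-06). Iqgap2, a cytoskeletal scaffold gene, rose by 2.31 ± 0.26 (adjusted p = 0.000658), and Nbl1, a secreted antagonist of bone morphogenetic proteins, by 2.25 ± 0.43 (adjusted p = 0.00917). The zinc finger repressor gene Zfp503 rose by 2.60 ± 0.31 (adjusted p = 0.000918), with further probe sets at −0.06, 0.51 and 2.50.

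The other large changes covered varied functions. Nkd2, a Dishevelled-binding inhibitor of Wnt signalling, fell by 2.20 ± 0.17 (adjusted p = 0.000116), and the membrane inhibitor of Wnt gene Apcdd1 rose by 1.90 ± 0.10 (adjusted p = 1.81e-05). Ano4, an anoctamin membrane protein gene, fell by 2.49 ± 0.14 (adjusted p = 3.54e-05) and Arhgap22, a Rac GTPase-activating protein gene, fell by 2.37 ± 0.32 (adjusted p = 0.00163). Ttyh1, a membrane protein gene of glia, fell by 2.55 ± 0.46 (adjusted p = 0.00683), the planar polarity gene Prickle2 fell by 2.23 ± 0.23 (adjusted p = 0.000476) and Car8, a carbonic anhydrase relative, fell by 2.16 ± 0.44 (adjusted p = 0.0118). Cd200, a surface ligand that restrains myeloid cells, fell by 2.36 ± 0.40 (adjusted p = 0.00494), while its other probe set differed by −0.07. Rises included Lurap1l (3.63 ± 0.23), the actin-associated gene Zfp185 (2.86 ± 0.28), the adaptor gene Fyb1 (2.50 ± 0.17), the extracellular matrix gene Aebp1 (2.22 ± 0.28), the peptidase gene Mme (2.08 ± 0.28), the metallothionein gene Mt2A (1.79 ± 0.25), the junction gene Pkp4 (1.73 ± 0.15) and the Ral exchange factor gene Ralgps2 (1.72 ± 0.27), all with adjusted p of 0.00355 or less. Fgl2, a fibrinogen-like gene, rose by 1.77 ± 0.37 (adjusted p = 0.0143), and its adjusted p was 0.0521 without NF1 RNAi + U0126 replicate 2.

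Probe sets of one gene did not always move alike. Of 61 named genes that passed and had further probe sets, 20 had at least 1 that changed by under 0.5 of the log2 difference given, or the other way. Beside those given with their genes, Ttyh1 had probe sets at −2.32, −0.35 and −1.76, Prickle2 at −2.57 and −0.38 and Kcnd3 at −1.16 and −0.10. Those of Pakap were at −1.52, −1.34 and −0.49 and those of Epha4 at 1.10, 0.50 and 1.20. The smaller changes of Bcl2l1 (further probe sets at −0.01 and 0.69), Bcl2l11 (−0.12 and −0.30), Insr (−0.24), Sesn1 (−0.18), Ppargc1a (0.06 and 0.17) and Tpm1 (0.20 to 1.02) were of this kind too.

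Promoter letters were counted in the 250 bases before the first RefSeq start, both strands, for 11736 measured genes, 841 that fell and 799 that rose. No test was made. AP-1 (TGACTCA or TGAGTCA) occurred in 3.46% of all, 2.50% of those that fell and 3.13% of those that rose. The CRE (TGACGTCA), which differs from AP-1 by an added base, occurred in 2.64%, 2.50% and 1.63%. The CArG box of SRF (CC and GG around a run of A or T) occurred in 1.24%, 1.55% and 1.75%. ETS letters (ACCGGAAG) occurred in 3.55%, 3.57% and 2.88%. EGR letters (GCGTGGGCG) were found in 0.912%, 1.78% and 0.751%. The NF-kB pattern GGGNNTTCC was found in 5.91%, 7.49% and 5.13%. The M-box core CATGTG occurred in 7.69%, 5.71% and 8.14% and the related E-box CACGTG in 7.82%, 6.42% and 9.26%. E2F letters (TTTCGCGC or TTTGGCGC) occurred in 1.02%, 0.951% and 0.751%, and those of the aryl hydrocarbon receptor (TTGCGTG) in 1.38%, 1.55% and 1.38%.

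Markers of the cultured cell type were present throughout. Of 9 measured Schwann cell markers 4 fell (2 to 4) and 1 rose (0 to 2, 2 without the replicate 1 arrays), with a median of −0.20, and their summed intensity was 51125.4 to 53905.9 in NF1 RNAi and 50730.2 to 52063.2 with U0126. S100b, a calcium-binding protein gene, had mean log2 levels of 14.04 and 13.66 (−0.38 ± 0.07, adjusted p = 0.00987), and Erbb3, Foxd3 and Gfap were the other falls. The chaperone gene Cryab rose by 0.57 ± 0.15 (adjusted p = 0.0322), lost without Control RNAi replicate 2, NF1 RNAi replicates 2 or 3 or any NF1 RNAi + U0126 array (adjusted p up to 0.121). Sox10, the lineage factor, was at 11.38 and 11.18 (adjusted p = 0.0884) and Ngfr at 12.97 and 13.28 (adjusted p = 0.276). Cdh19 was not analysed here.

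Markers of other cell types were read too. Of 12 fibroblast markers 1 rose (1 to 1, 2 with the block), Ogn by 1.37 ± 0.17 (adjusted p = 0.00111), and 1 fell (0 to 2, the high end without NF1 RNAi + U0126 replicate 1, 2 with the block and 2 without the replicate 1 arrays), Col1a2, with a median of −0.03 and summed intensities of 42730.8 to 50239.6 and 31123.4 to 45633.9. With the block Col3a1 rose and Postn fell (0.45 and −0.46, adjusted p = 0.0154 and 0.00625, against 0.484 and 0.281 without it). Col1a1, Col1a2 and Postn were bright in both groups, while Dcn and Lum had mean log2 levels of 4.10 and 3.28 in NF1 RNAi. Of 13 macrophage and leukocyte markers 1 rose (1 to 1), the lysosomal gene Cd68 by 0.90 ± 0.12 (adjusted p = 0.00147), with a median of 0.06 and sums of 605.9 to 641.1 and 643.0 to 718.3. Ptprc was at 4.43 and 4.50 and Csf1r at 4.25 and 4.39, near the low end. Of 11 measured endothelial and mural markers limma called 0, 1 had an unadjusted p under 0.05 (Tek, 0.31 ± 0.09, adjusted p = 0.0576), 1 rose without Control RNAi replicate 1 and 1 with array weights, the median was 0.07 and the sums were 671.2 to 716.6 and 678.1 to 811.4. Of 11 neuron markers 3 rose (2 to 3) and 1 fell (0 to 2, 2 with the block and 2 without the replicate 1 arrays), with a median of 0.05 and sums of 4545.6 to 5177.5 and 6536.3 to 6828.1, which do not overlap. The neurofilament gene Nefm rose by 1.55 ± 0.25 (adjusted p = 0.00394) and the microtubule gene Map2 by 0.83 ± 0.14 (adjusted p = 0.00607), while the neuron-defining Rbfox3, Snap25 and Elavl4 were at mean log2 levels of 5.54, 4.53 and 4.29 with U0126. Nefl (1.28) and Uchl1 (−0.51) passed but lost their calls without any of 6 and 4 arrays, NF1 RNAi replicates 1 and 2 and NF1 RNAi + U0126 replicates 2 and 3 among them (adjusted p up to 0.117), and Tubb3 (−0.83, adjusted p = 0.154) passed with the block (adjusted p = 0.0459). The part of these markers in the results above was not tested.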

How the data were processed

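Total RNA of 9 cultures was labelled with biotin and hybridised to Affymetrix arrays, per the labels' protocols. The authors deposited linear RMA intensities (5.62 to 25800.2), per the submitters' processing notes, with versions not given in the sources used here. Of 31099 probe sets 57 controls were left out. Of the other 31042, 20826 had 1 gene in the platform annotation, 436 several and 9780 none, and symbols were updated through RefSeq tables (20758 by gene ID, 2 by accession, 53 by symbol, 9 by older symbol, 4 kept). Values were taken as log2(intensity + 1), and each of 14213 genes by the probe set with the highest mean over all arrays. These are log2 values computed here from the deposited intensities.

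The test was limma's (version 3.58.1, R 4.3.3), a moderated fit of the group means of all 9 arrays with Benjamini-Hochberg adjustment and a threshold of 0.05, checked on simulated data first. Tables were made with pandas 2.3.3 in Python 3.11.15. The number of arrays limits the precision. The labels call the replicates independent but do not name the animals, so p-values measure the spread between these samples.

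The members and the gene lists were chosen with earlier results of these data known. Genes were named by a rule: Nf1, the 25 largest rises and 25 largest falls among genes that passed without overlap (provisional symbols left out), up to 4 passing members per list and direction (or the smallest p), 5 falls and 5 rises flat with NF1 RNAi, and the markers. Others named are the rest of a list's calls, a few list members that did not pass, and neighbours, chosen after their values were seen. The 35 lists held 656 different genes, and 629 of 694 places were measured. Motifs were searched in the RefSeq GRCr8 promoter table.

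Replicate numbers were checked as pairs: deviations from the group means correlated at 0.619, 0.244 and 0.337 between same-numbered arrays and from −0.516 to 0.402 between others, where replicates 2 and 3 resembled each other. Every same-numbered pair was above 0.1, so a fit with the replicate block was the paired alternative. Further alternatives were another pseudocount, centring, normalization, a filter on dim genes, array weights, trend, single arrays left out and all replicate 1 arrays left out.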

Additional observations from a re-analysis of the deposited data

How the results depend on the processing

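With the replicate number as a block 2790 genes passed (1354 higher, 1436 lower), 1917 of them shared with the 1951 without it. Among the 203 named genes the block removed 0 calls and added 4, and it moved no count by over 1.5 times other than those of the lists given with it. An adjusted p under 0.01 left 904 genes (434 higher, 470 lower) and 1363 probe sets, and array weights, whose estimation did not reach its convergence tolerance, gave 3261 genes (1591 higher, 1670 lower) and 4742 probe sets, against 3113 probe sets (1381 higher, 1732 lower). Leaving out single arrays gave 1110 to 2587 genes, 578 to 1253 higher and 532 to 1334 lower, the lowest of each without NF1 RNAi replicate 2 and the highest without Control RNAi replicate 1. Without all replicate 1 arrays 1272 were higher and 1349 lower. The filter, median centring, quantile normalization, both pseudocount alternatives, the fit on the 2 groups, the trend and robust fit and averaging over the probe sets of a gene kept the total within 1.5 times of 1951. Of named genes, 9 lost the call in the fit on the 2 groups (Rasa2, Insr, Tnc, Col1a2, Itgb1, Nop2, Bcl2l1, Bid, Sesn1) and 9 with probe sets averaged (Epha4, Insr, Tnc, Dag1, Bcl2l11, Bcl2l1, Sesn1, Tead1, Nefl). No called result changed direction under the alternatives run. Of the 152 named genes that passed, 46 lost the call in at least 1 fit with an array left out, up to 40 without NF1 RNAi replicate 2. The cause was not tested. Signal near the low end of the arrays limits the size of changes there.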

Other observations

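Of 9780 probe sets without an annotated gene 660 passed (6.75%, 263 higher and 397 lower), beside 11.6% of probe sets with 1 gene, and 114 changed 2-fold or more. The largest of these falls had log2 differences of −3.15, −3.10 and −2.80, and the largest rises 2.36, 2.33 and 2.33. Genes with more than 1 probe set allowed a second reading of the same call. Of 1122 further probe sets of 752 genes that passed, 1005 (89.6%) differed in the same direction and 479 (42.7%) passed in that direction.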
